A study of Mus musculus with 15 samples.

Results

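The nuclei described here are dentate granule neurons in which a set of 4 genes led by Trpc6 and Gpc4 outweighed an opposing set led by Dsp and Chst9. A nucleus entered the granule gate with at least 500 detected genes, at least 2 UMIs each of Prox1 and Glis3, and at most 1 UMI of Gad1 and Gad2 together. A UMI is a unique molecular identifier, counted once per captured transcript. Within the gate, a nucleus was assigned to the Trpc6/Gpc4 type when its summed UMIs of Trpc6, Gpc4, Stxbp6 and Gsg1l came to at least 3 and exceeded its summed UMIs of Chst9, Dsp, Npnt, Cnih3 and Il1r1. Members were thus selected on the measured UMIs of these genes, so the levels of the 9 genes are given as a description. Of 134019 barcodes in 15 libraries, 133236 had at least 500 genes, 19751 passed the granule gate and 15935 were of the Trpc6/Gpc4 type, which is 80.7% of the gate. The mirror rule, with the second sum the larger, gave 3057 Dsp/Chst9 nuclei (15.5% of the gate), and 759 nuclei (3.84%) were of neither type.

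Each library came from 1 female C57BL/6J mouse and held nuclei from bilateral micropunches enriched for the dorsal hippocampal formation (dHF), 4 punches per mouse. NP mice (n = 6) were virgin and nulliparous. Control RE mice (n = 4, labelled ControlPP) had reproductive experience, and stress RE mice (n = 5, labelled StressPP) had reproductive experience together with limited nesting and daily separation from their pups after birth. No transgene or other treatment is given in the labels, nor is an age. The punches also took in some cortical, thalamic and ventral tissue, per the methods. The labels give 3 batches, and batch 1 held NP 1, NP 2 and stress RE 2 but no control RE mouse. The methods state that every group was present in every batch, so the batch of the labels may not be the batch of the methods.

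Granule neurons are the principal excitatory cells of the dentate gyrus. They receive input from the entorhinal cortex through the perforant path and send mossy fibres to CA3 and to hilar mossy cells. Their identity is held by the homeobox factor Prox1, and new granule neurons are added in adult life from a progenitor zone beneath the cell layer. TRPC6 is a calcium-permeable cation channel, glypican 4 is a heparan sulphate proteoglycan anchored to the membrane, STXBP6 (amisyn) binds SNARE proteins and GSG1L is an auxiliary subunit of AMPA receptors. On the opposing side, CHST9 sulphates glycans, desmoplakin links junctions to intermediate filaments, nephronectin is a matrix protein, CNIH3 is another AMPA receptor auxiliary subunit and IL1R1 is the interleukin-1 receptor.

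Depth was sufficient to sort most gated nuclei. Libraries held 5789 to 12738 barcodes, and each mouse gave 399 to 1746 Trpc6/Gpc4 nuclei and 75 to 374 Dsp/Chst9 nuclei. Median UMIs per nucleus lay between 7373.5 and 14343 in the Trpc6/Gpc4 type, between 8184 and 15231 in the Dsp/Chst9 type and between 1872 and 3947.5 in nuclei gated as oligodendrocytes. Doublet calls by Scrublet took 12.6% of the Trpc6/Gpc4 nuclei (6.68 to 18.6% by mouse) and 7.46% of all nuclei with 500 genes. They were kept in the values below and removed in an alternative for the shares and for the group tests within the type. The ratios between the types and the interaction test were not redone without them. Member barcodes that also occurred in another library numbered 482 (3.02%), and any pair of libraries shared 6 to 47 barcodes. A principal component analysis of the summed counts of the type put NP 2 and stress RE 2 apart, at −83.5 and −72.3 on a first component that held 45.0% of the variance. Both are of batch 1. They also had the lowest summed level of 312 genes with antisense-type names in the type, 1419 and 1486 CPM (counts per 1e6 UMIs) where the others ran from 2009 up to 3734, and the highest mitochondrial shares, 0.165% and 0.171%. The part of these features in the group values below was not tested, and the counts of genes called between groups are also given without both libraries.

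**Figure D1:**
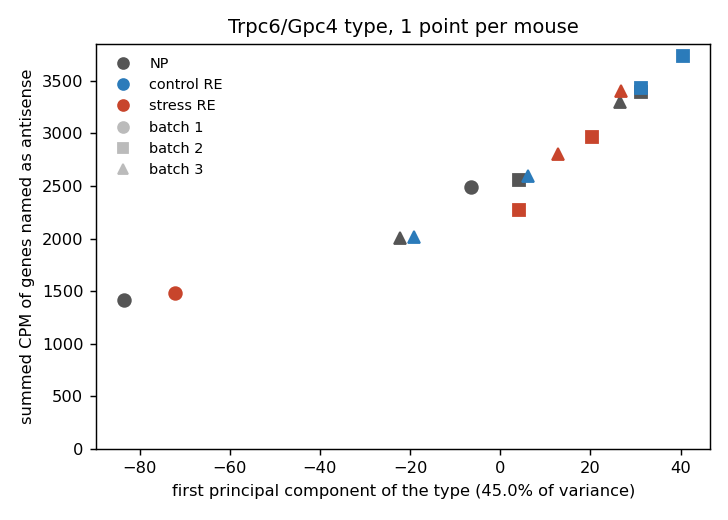
The Trpc6/Gpc4 granule type in each library. Each point is a mouse, coloured by group and shaped by batch, with the first principal component of its summed counts in the type on the x axis (45.0% of the variance) and the summed CPM of 312 antisense-named genes on the y axis. NP 2 and stress RE 2 sit apart at −83.5 and −72.3, with 1419 and 1486 CPM.

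Granule markers that the rule did not use were checked next. CPM here is a gene's UMIs as counts per 1e6 UMIs summed over a mouse's nuclei of the type. C1ql3, a secreted synaptic organiser of mossy fibres, averaged 272 CPM in the type, 51.9 in oligodendrocytes and 73.0 in all nuclei outside the gate. Calb1, the calcium buffer calbindin, averaged 78.5, 19.4 and 30.6 CPM in the same order. Bcl11b, a transcription factor of granule neurons, averaged 373, 52.0 and 182 CPM. The dorsal dentate markers Lct and Stra6 averaged 57.6 and 52.1 CPM, against 15.4 and 10.4 in the other nuclei, while 7 ventral dentate markers summed to 43.0 to 82.8 CPM, a mean of 63.1 against 199.8 outside the gate. Lct and Stra6 were not particular to the type among granule neurons, with a median log2 ratio of −0.21 to the Dsp/Chst9 nuclei. Nor were the ventral markers lower among granule neurons: they summed to a mean of 58.1 CPM in Dsp/Chst9 nuclei. Their median log2 ratio was 0.21, over the 2 genes compared.

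Most lists of markers of other cells had lower sums in the type than in the other nuclei, and no marker was at 0. The CA1 list summed to 362 CPM in the type against 1189 in the other nuclei, the CA3 list to 573 against 1177, and the mossy cell list to 86.5 against 456. The GABAergic list summed to 171 against 1245, but it holds Gad1 and Gad2, which the gate capped. Oligodendrocyte markers summed to 626 CPM (478 to 1026 across mice, highest in stress RE 3) against 2344, astrocyte markers to 364 against 898, microglial markers to 57.5 against 140, and oligodendrocyte precursor markers to 113 against 615. Immature granule neuron genes stood at about the level of the other nuclei, 178 against 175 CPM. Vascular and choroid markers ran from 8.13 to 151 CPM, highest in NP 1, and the part of other cells' RNA in the values of the type was not tested.

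The type is an interval of a score set by the rule. Among 18075 gated nuclei with at least 10 UMIs of the 9 genes, the share of those UMIs that came from the first 4 genes was spread over its whole span. The share uses the genes of the rule and few UMIs per nucleus, so it cannot tell a range from 2 sets blurred by counting. The 10 equal intervals from the lowest share to the highest held 0.254, 0.952, 2.71, 4.54, 6.52, 9.76, 12.0, 15.4, 22.1 and 25.8% of the nuclei. Nuclei with a first sum exactly 1 above the second, just inside the rule, numbered 495. Another 406 were tied and 418 lay 1 below. At the minimum of 3 UMIs, 109 nuclei lay just inside with a median of 5726 UMIs, and 74 with a first sum of 2 lay just outside with a median of 4732.

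Most Trpc6/Gpc4 nuclei also carried UMIs of the opposing genes. Trpc6 (chr9:8544142-8680741, plus strand, GRCm38) was detected in 91.9% of the type, 56.1% of Dsp/Chst9 nuclei and 8.73% of oligodendrocytes, a cell type expected to lack it and sequenced less deeply. Gpc4 (chrX:52053021-52165252, minus strand) was detected in 75.3, 57.8 and 4.81%, and Gsg1l (chr7:125878420-126082411, minus strand) in 62.9, 12.9 and 2.99%. Stxbp6 (chr12:44852484-45074709, minus strand) separated the types least by detection, at 99.8, 94.1 and 68.1%. Chst9 was still detected in 62.5% of the Trpc6/Gpc4 type, with 93.9% in the Dsp/Chst9 type and 5.97% in oligodendrocytes. In level, Trpc6 averaged 463 CPM in the type and 102 in Dsp/Chst9 nuclei, Gsg1l 143 and 14.0, Stxbp6 1100 and 430 and Gpc4 187 and 104, while Chst9 averaged 182 and 526 and Il1r1 42.8 and 108.

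**Figure D2:**
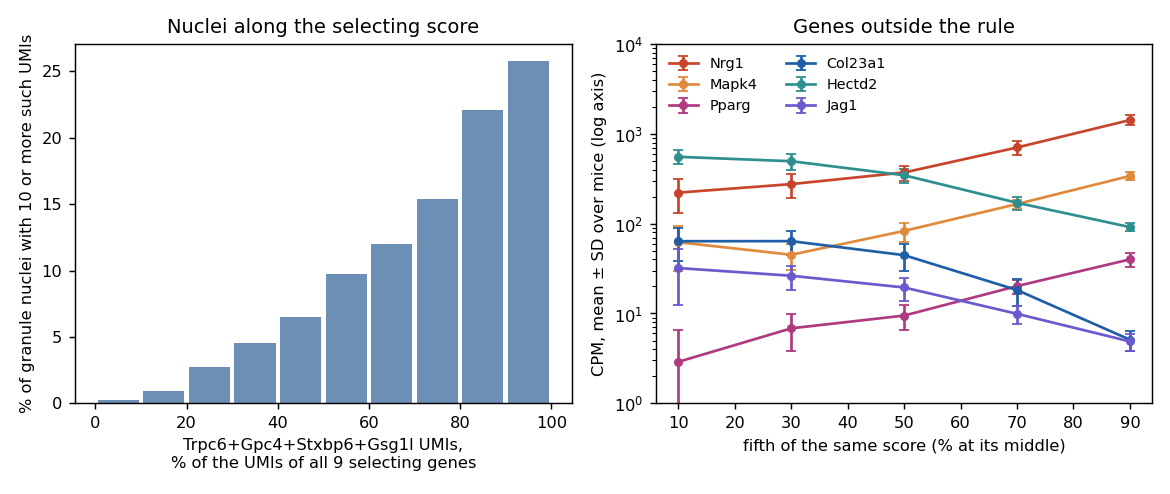
Gated granule nuclei along the share used by the rule. The left panel plots the percent of 18075 gated nuclei in each of 10 equal intervals of the share of the 9 genes' UMIs held by Trpc6, Gpc4, Stxbp6 and Gsg1l, and the right panel the mean CPM of 6 other genes with the SD over mice, on a log axis, by 5 equal intervals of that share. The histogram climbs from 0.254 to 25.8%, and Nrg1 climbs from 222 to 1422 CPM while Hectd2 goes from 554 to 91.6 CPM.

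Beyond the 9 genes, the Trpc6/Gpc4 neurons carried more Nrg1, Mapk4, Plk5 and Pparg than the Dsp/Chst9 neurons of the same mice, and less Col23a1, Pmepa1, Hectd2 and Sorcs2. The rule was drawn on this same contrast, so these differences are given without a test. Of 6460 genes at 20 CPM or more in either type, 798 were higher in all 15 mice (12.4% of those compared) and 678 were lower in all 15 (10.5%). The median log2 ratio was 0.04. Some genes met the 20 CPM minimum only in the type where they were higher, so these counts and the widest ratios rest in part on that minimum. Ratios are within a mouse, on the log2(CPM + 1) scale, with the SD over 15 mice.

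Among the 15 genes with the widest positive ratio, Nrg1 (chr8:31814551-32884029, minus strand), the neuregulin ligand of ErbB receptors, was at 1036 CPM in the type and 306 in Dsp/Chst9 neurons, a log2 ratio of 1.78 ± 0.26. Its lowest mouse in the type, at 821 CPM, was above the highest in the other type, at 479. Mapk4, an atypical MAP kinase, ran from 208 to 285 CPM in the type and from 38.3 to 108 in the other, again without overlap (log2 ratio 2.09 ± 0.40). The lincRNA Gm6999 (chr14:79836712-80006326, plus strand) had the highest ratio by the naming rule, 2.29 ± 0.41, at 84.2 and 17.1 CPM. Plk5 (chr10:80356459-80365489, plus strand), a polo-like kinase of neurons, had a ratio of 1.95 ± 0.26, and Pparg (chr6:115360951-115490399, plus strand), a lipid-sensing nuclear receptor, one of 1.93 ± 0.28. The integrin subunits Itgav and Itgb8 were at 1.64 and 1.49, and the activin receptor-like kinase Acvr1c at 1.54. The others were Necab3 (1.88), Plpp4 (1.74), the ubiquitin ligase subunit Fbxo32 (1.71), Prr16 (1.63), the actin nucleator Cobl (1.49), the Ras activator Rasgrp1 (1.48) and Gm32014 (1.47).

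The widest negative ratio was that of Col23a1. This gene (chr11:51289920-51583918, plus strand), a transmembrane collagen, was at 13.3 CPM in the type and 59.1 in Dsp/Chst9 neurons, a log2 ratio of −2.08 ± 0.19. Hectd2 (chr19:36554639-36621135, plus strand), a ubiquitin ligase, was at 144 and 451 CPM, a ratio of −1.63 ± 0.12. Its antisense neighbour Hectd2os overlaps it, had a ratio of −1.55, and may share reads with it, and its value is uncertain. Sorcs2 (chr5:36017180-36398139, minus strand), a sortilin-family receptor for proneurotrophins, was at 115 and 312 CPM and had a narrow spread (−1.42 ± 0.11). Jag1, a Notch ligand (chr2:137081456-137116644, minus strand), was at 8.11 and 25.6 CPM, a ratio of −1.50, and Wnt9a, a Wnt ligand, had one of −1.47. The transmembrane protein gene Pmepa1 was at −1.81, the repressor Bcl6 at −1.54, the calcium release channel Ryr1 at −1.53 and the T-type channel Cacna1g at −1.43. The remaining genes were Moxd1 (−1.81), Rhbdl3 (−1.63), Afap1l2 (−1.51), Trib2 (−1.45) and Gm11728 (−1.42).

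The levels of some of these genes are given along the same share as a description, since the share is built from the rule and the genes were named for their ratio under it. Over 5 equal intervals of that share from low to high, Nrg1 averaged 222, 276, 371, 704 and 1422 CPM, and Mapk4 averaged 62.1, 45.0, 83.0, 165 and 339. Hectd2 went the other way, at 554, 495, 345, 171 and 91.6 CPM, as did Sorcs2, at 348, 321, 238, 137 and 76.9. The lowest interval held only 179 nuclei from the 10 mice with enough of them, against 8650 in the highest.

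**Figure D3:**
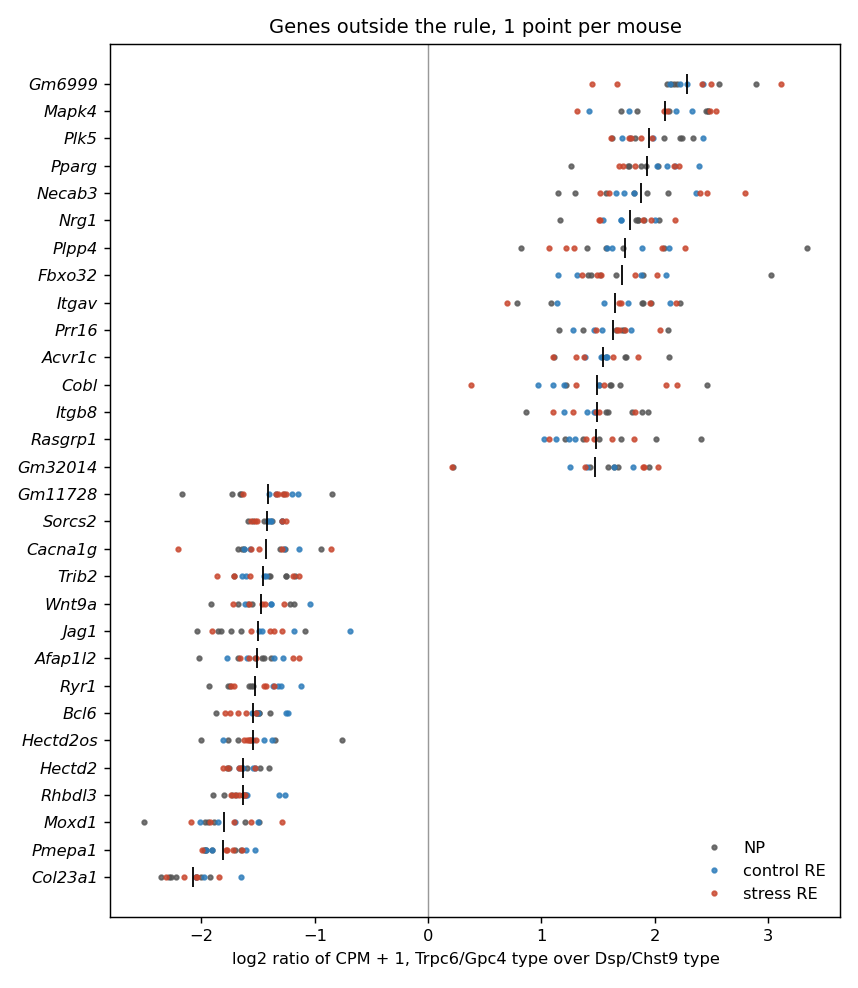
Log2 ratio of CPM in Trpc6/Gpc4 over Dsp/Chst9 granule neurons for the 15 highest and 15 lowest genes outside the rule among those on 1 side in all 15 mice. Points are mice coloured by group and the vertical ticks the mean over 15 mice. The means run from Gm6999 at 2.29 to Col23a1 at −2.08, and the choice of genes sets that no point crosses 0.

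The fixed gene lists are given beside the shares over all genes, 12.4% higher and 10.5% lower in all 15 mice with a median of 0.04, and without a test of any list. Being on 1 side in all 15 mice depends in part on the UMIs counted. The lists differ in level and were not matched to all genes, so these shares are a rough comparison only. Marker lists of other cells also had positive medians: oligodendrocyte 0.45 over 5 genes, GABAergic 0.445 over 2, CA3 0.32 over 4 and astrocyte 0.31 over 3. The microglial value was −0.12, from 1 gene. The part of other cells' RNA in the list ratios was not tested. Of 21 ionotropic glutamate receptor and AMPA auxiliary genes compared, 5 were higher in the Trpc6/Gpc4 type in all 15 mice and 9 lower, with a median log2 ratio of −0.08. Cacng3, an AMPA auxiliary subunit, was at 0.61 and the kainate subunit Grik2 at 0.50, while Grik3 was at −0.55 and both Gria1 and Grin2a at −0.26. Of 6 metabotropic glutamate receptors, 5 were higher and 1 lower, with a median of 0.24. Grm8 was at 1.18 (105 and 48.4 CPM), Grm3 at 0.75 and Grm2 at −0.78. Of 10 GABA-A receptor subunits, 6 were higher, Gabra2 (0.45) and Gabrg3 (0.49) among them, and 3 were lower, such as Gabra5 (−0.46). Among serotonin, adrenergic, cholinergic, opioid and cannabinoid receptors, 2 of 6 were higher, Oprm1, the mu opioid receptor, at 1.15 and Htr4, a serotonin receptor, at 0.31. Oprm1 varied widely between mice, from 13.1 to 85.1 CPM in the type.

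Of 3 TRPC channel genes compared outside the rule, 0 were higher in all 15 mice and 2 were lower. Trpc5 was at 182 CPM in the type and 385 in Dsp/Chst9 neurons (−1.07), Trpc4 at 158 and 280 (−0.82), and Trpc1 had a ratio of 0.01. Of 34 potassium and HCN channel genes, 10 were higher and 8 lower: Kcnip3 (0.67) and Kcnc4 (0.62) on one side, Kcnk2 (−0.87) and Kcnn3 (−0.84) on the other. Of 19 calcium and sodium channel genes, 3 were higher and 8 lower, with a median of −0.08, beside 12.4% and 10.5% of all genes. Cacna1h, a T-type channel, was at −0.95 with the auxiliary Cacnb4 at 0.42.

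Of 18 axon guidance genes, 11 were higher in all 15 mice and 5 lower, with a median of 0.34, beside 12.4% and 10.5% of all genes and their median of 0.04. Sema5b was at 1.14, Sema6d at 1.09 and Ntng1 at 1.00, and the semaphorin receptor Nrp1 at −0.63. Of 17 cadherins and protocadherins, 6 were higher and 3 lower, with Cdh13 at 1.31, Pcdh7 at 1.12 and Pcdh10 at −1.06. Of 37 synaptic adhesion genes, 10 were higher and 9 lower, with a median of 0.06. Nrxn3, a presynaptic neurexin, was at 2991 and 1400 CPM (1.10) and Tenm2 at 0.84, against Cntnap5b at −1.04 and Tenm1 at −0.78. Of 19 proteoglycan and sulphation genes outside the rule, 4 were higher and 4 lower. The glypican Gpc3 was at 1.16 and the heparan sulphotransferases Hs6st3 and Hs6st1 at 0.71 and −0.93.

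Of 8 hormone receptor genes compared, 1 was higher in all 15 mice and 2 were lower, with a median log2 ratio of 0.08, beside 12.4% and 10.5% of all genes. Nr3c2, the mineralocorticoid receptor, was at 1281 CPM in the type and 2085 in Dsp/Chst9 neurons (−0.70 ± 0.07), and the thyroid hormone receptor Thrb at 120 and 236 (−0.97). Nr3c1, the glucocorticoid receptor, was at 0.20, higher in 14 mice, and Pgr, the progesterone receptor, at 0.69. Of 5 glucocorticoid-responsive genes, 1 was higher and 1 lower. Sgk1, a kinase induced by corticosteroids, was at 83.0 and 38.9 CPM (1.09), while Zbtb16 was at −0.57 and Fkbp5 at −0.03. Sgk1 was above the oligodendrocytes of the same mouse in 5 of 15 mice and Nr3c1 in 0, with Zbtb16 in 13 and Fkbp5 in 15. The part of oligodendrocyte RNA in these ratios was not tested. Of 8 neurotrophin and neuregulin genes, 2 were higher and 3 lower. Bdnf was at 83.0 and 46.7 CPM (0.83), and its receptor Ntrk2 was at −0.44 with Ntrk3 at −0.67. Of 6 neuropeptide and granin genes, 3 were higher and 0 lower, and the granins Chgb and Scg2 were at 0.80 and 0.74. Of 7 granule identity genes, 1 was higher, C1ql2 (1.15), and 3 were lower, Calb1 (−0.92) among them.

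Of 8 dopamine signalling genes at 20 CPM or more, 3 were higher in the type in all 15 mice and 1 lower, with a median of 0.18, beside 12.4% and 10.5% of all genes. The receptors were below that level. Drd1, the D1 dopamine receptor (chr13:54051183-54055705, minus strand), was at the higher level in the Trpc6/Gpc4 type in every mouse. It lay between 2.29 and 7.72 CPM in the type and between 0 and 1.93 CPM in Dsp/Chst9 neurons, where a mouse had at most 6 Drd1 UMIs. The oligodendrocytes of the same mice gave 0.447 to 6.06 CPM, highest in stress RE 3, where the type had 6.54. All 15 mice had more in the type than in their oligodendrocytes. These oligodendrocytes were kept only without any UMI of Slc17a7, Gad1 or Gad2, while the type kept its doublet calls. They may therefore hold less RNA of other neurons than the type does. Drd5, the other receptor of the D1 class, lay between 1.45 and 4.78 CPM in the type and overlapped the Dsp/Chst9 range of 1.14 to 7.89. Ppp1r1b, which encodes the dopamine effector DARPP-32, was above the Dsp/Chst9 neurons in 10 mice and above the oligodendrocytes in 6.

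The groups were next compared for how much of the granule layer the type made up, by two-sided exact permutation over mice with Benjamini-Hochberg adjustment over 9 comparisons. As a share of gated granule nuclei, the type made up 75.5 to 82.6% in NP mice (median 80.2), 82.6, 79.7, 80.5 and 79.7% in control RE mice and 84.7, 79.2, 82.1, 78.7 and 79.1% in stress RE mice. NP 1 was the lowest and stress RE 1 the highest, and the groups overlapped. The means were 79.8 ± 2.83, 80.6 ± 1.36 and 80.8 ± 2.61 (SD). Control RE minus NP was 0.83 percentage points (exact permutation p = 0.657), stress RE minus control RE 0.15 (exact p = 0.937) and stress RE minus NP 0.98 (exact p = 0.576), each with an adjusted p of 0.968. The smallest p these designs allow is 0.00476, 0.00794 and 0.00216. Wilson 95% intervals of single mice, which cover counting error only, had lower bounds of 71.7 to 82.9% and upper bounds of 79.0 to 86.4%.

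The share also differed between batches. The type averaged 78.4% of granule nuclei in batch 1, 79.1% in batch 2 and 82.5% in batch 3. Control RE minus NP was 0.93 points within batch 2 and −1.06 within batch 3. Stress RE minus control RE was −0.78 and 1.88 within the same batches, and stress RE minus NP was 1.18, 0.15 and 0.81 within batches 1, 2 and 3. Thinned to 5000 UMIs per nucleus, with shallower nuclei left out, 14463 of 18701 gated nuclei were of the type, and the group means were 76.7, 77.3 and 76.6%.

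As a share of all nuclei with 500 genes, the type varied far more: 5.94 to 16.8% in NP (10.9 ± 4.33), 12.4, 11.6, 11.4 and 15.8% in control RE (12.8 ± 2.08), and 17.2, 9.13, 8.29, 6.95 and 18.6% in stress RE (12.0 ± 5.44). The ranges overlapped. Control RE minus NP was 1.86 points (exact permutation p = 0.443), stress RE minus control RE −0.75 (exact p = 0.786) and stress RE minus NP 1.12 (exact p = 0.706), again with an adjusted p of 0.968. Within batches 2 and 3, control RE minus NP was 2.64 and −3.63 points and stress RE minus control RE −0.92 and 0.87. Stress RE minus NP was 2.93, 1.72 and −2.76 within batches 1, 2 and 3. In this share, the amount of dentate gyrus in a punch and a change in the cells cannot be told apart. A p that misses the threshold does not show that shares were equal. Over the nuclei assigned to either type, the differences were 0.32, 0.02 and 0.34 points in the same order.

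**Figure D4:**
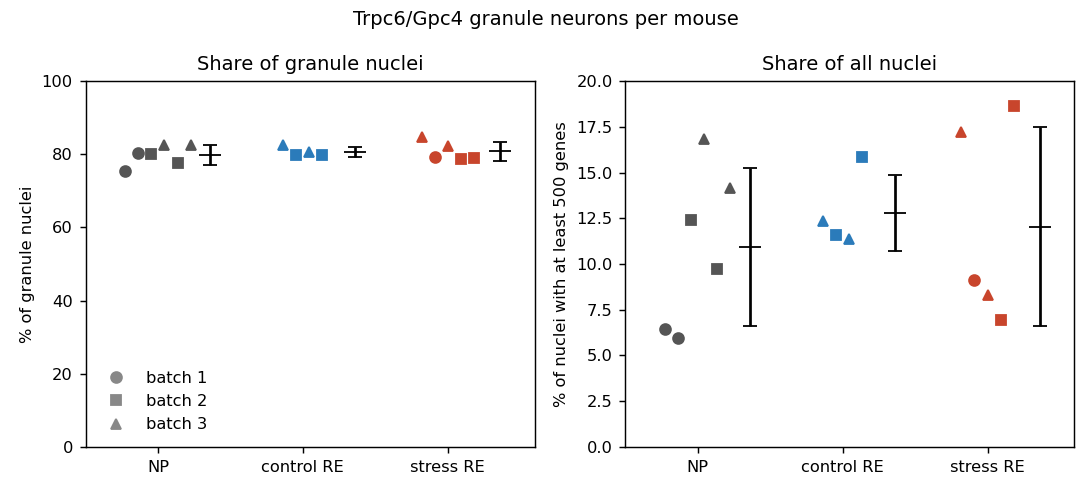
Percent of gated granule nuclei, left, and of all nuclei with 500 genes, right, that were of the Trpc6/Gpc4 type. Points are mice, coloured by group and shaped by batch, and bars the group mean and SD. The left groups centre on 79.8, 80.6 and 80.8% and the right groups spread from 5.94 to 18.6%.

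No gene of the Trpc6/Gpc4 neurons passed the test between any pair of groups. UMIs were summed per mouse over the type, and 16014 genes were tested with edgeR's quasi-likelihood test at an adjusted p under 0.05. It called 0 genes (0%) for control RE minus NP, 0 (0%) for stress RE minus control RE and 0 (0%) for stress RE minus NP. At an unadjusted p under 0.05 there were 340, 188 and 256 genes. Each count, here and in the alternatives below, was under 0.05 of the genes tested, the share that chance alone gives. Leaving out some single mice moved these counts by over 1.5 times. Control RE minus NP went to 222, 218 and 526 without NP 1, 2 and 3 and to 520 without control RE 1, stress RE minus control RE to 650 without control RE 1 and 632 without stress RE 5, and stress RE minus NP to 416 without NP 4. Leaving out batch 1 gave 207 for control RE minus NP and 285 for stress RE minus control RE. Batch as a term gave 284 for stress RE minus control RE and 399 for stress RE minus NP. An equal number of nuclei per mouse gave 289 of 13707 genes for stress RE minus control RE. No filter on low counts gave 686, 455 and 594, but of 26661 genes tested. DESeq2 also called 0 in each, with 359, 205 and 286 of 26661 genes at an unadjusted p under 0.05. Without NP 2 and stress RE 2, edgeR again called 0 in each. The median standard error of a log2 change was 0.17, 0.17 and 0.16. In counts simulated on these mice, genes made to differ by 1 on the log2 scale were called in 62.0, 60.5 and 62.5% of cases, and those made to differ by 0.5 in 11.5, 8.5 and 23.5%. With the larger difference, 10, 1 and 6 unchanged genes were also called. Counts were drawn independently around 1 mean per gene, without a batch factor or libraries that stand apart. The percentages may therefore not hold for the measured counts. The genes with the smallest p are therefore given as values.

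For control RE against NP, these were low-level genes with a few high NP mice and a few evenly shifted genes. Palmd, which encodes palmdelphin, was at 33.9 to 36.7 CPM in control RE and 24.2 to 30.4 in NP, without overlap (log2 0.38 ± 0.09 SE, edgeR adjusted p = 0.996). Tac2, the neurokinin B precursor (chr10:127724478-127731768, plus strand), was at 0 in 3 of the 4 control RE mice and at 0.0646 CPM in the other, against 0.0858 to 1.71 CPM in NP, where a mouse had 1 to 27 UMIs. The chloride channel Ano1 averaged 0.370 and 3.64 CPM, with overlapping groups. Mir670hg, Ahcyl2, Zfp300 and Spidr had positive and D130079A08Rik, Zic5 and Ckap4 negative log2 values, between −3.83 and 0.54.

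For stress RE against control RE, Jag1 was at 5.42 to 7.30 CPM against 8.37 to 10.5, without overlap (−0.42 ± 0.13 SE, edgeR adjusted p = 1.00). Pmepa1 was at 11.6 to 23.6 CPM in stress RE, highest in stress RE 2, and at 8.52 to 12.0 in control RE, and the groups overlapped. Both genes are also among those lowest in the type against Dsp/Chst9 neurons. Gpnmb, AI504432, Gm28424 and Ugcg had log2 values between 0.24 and 0.94, and Gm30173, Gm47578, D16Ertd472e and Samd11 between −1.39 and −0.36. For stress RE against NP, Mir670hg averaged 23.4 and 16.3 CPM with stress RE 2 the highest mouse at 33.5, Scube1 2.46 and 8.31, Ano1 0.586 and 3.64 and Dpp3 8.51 and 12.2, all with overlapping groups and an edgeR adjusted p of 1.00. Gm14004, Slc6a16, 4930500H12Rik and Myl4 had log2 values between 0.44 and 1.16, and F11r and Gm47578 had −1.03 and −1.24, again with overlap.

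Genes of dopamine signalling, fixed as a list, gave no call among 15 tested in any comparison, and median log2 values of −0.08, 0.04 and 0.00. Drd2, the D2 dopamine receptor, had the lowest value of the list for control RE minus NP, −1.48. It also had the highest for stress RE minus control RE, 1.29. Neither value passed the test. Drd2 is also on the mossy cell list, where these were again the lowest and the highest value. It was among the receptors below the level used to compare the types, so these values rest on a low level. Drd1 was at 7.72, 4.04, 4.72, 4.81, 4.17 and 3.97 CPM in the 6 NP mice, or 3.97 to 7.72 with NP 1 the highest. It was at 4.12, 2.29, 2.35 and 3.55 CPM in control RE and at 5.30, 4.61, 6.54, 5.83 and 2.83 CPM in stress RE. The control RE mice lay low, but the groups overlapped (control RE minus NP −0.59 ± 0.24 SE, edgeR adjusted p = 0.996, and stress RE minus control RE 0.67 ± 0.25, adjusted p = 1.00). In nuclei outside the gate, Drd1 was at 2.14 to 12.4 CPM in NP, 1.83 to 2.95 in control RE and 1.69 to 20.7 in stress RE, with stress RE 3 the highest there as in oligodendrocytes (6.06). Ppp1r1b was at 5.48 CPM in the type and 14.1 in the oligodendrocytes of stress RE 3, and Penk, the enkephalin precursor, at 15.8 and 24.8. For Drd1 in the type, NP 1 was highest at 7.72 CPM and stress RE 3 was next at 6.54. The part of RNA from other nuclei in the Drd1 and Drd2 values was not tested.

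Hormone and stress genes gave no call. With the groups in the order NP, control RE and stress RE, Nr3c2 averaged 1254, 1227 and 1358 CPM (stress RE minus control RE 0.14 ± 0.10 SE), and Nr3c1 112, 112 and 122 CPM. Fkbp5, a chaperone induced by glucocorticoids, averaged 109, 116 and 102 CPM, and stress RE minus control RE was −0.18 ± 0.08 (edgeR adjusted p = 1.00). Its oligodendrocyte level was 53.3 to 91.0 CPM in control RE and 25.0 to 48.2 in stress RE. The prolactin receptor Prlr averaged 16.9, 12.9 and 15.3 CPM. Of 11 hormone receptor genes and 10 glucocorticoid-responsive genes tested, none was called, and the medians of both lists lay between −0.06 and 0.02 on the log2 scale in all 3 comparisons.

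Activity and growth factor genes were also without a call. Of 16 immediate early genes, the medians were 0.04, 0.03 and 0.12, and Arc averaged 2.25, 2.46 and 2.50 CPM in NP, control RE and stress RE. Egr3, an activity-induced transcription factor, was at 8.09 to 17.2 CPM in control RE and 14.7 to 21.1 in stress RE. Arc was above the oligodendrocytes of the same mouse in 0 mice and Egr3 in 15. The part of other cells' RNA in the Arc values was not tested. Bdnf averaged 83.0, 79.2 and 86.4 CPM and Ntrk2 327, 323 and 329. Nrg1 averaged 947, 1070 and 1114 CPM, with a stress RE minus NP value of 0.28 ± 0.11 SE (edgeR adjusted p = 1.00).

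The immature granule neuron list had a median of −0.37 for control RE against NP over 8 tested genes, against −0.01 over all genes. Its median was 0.17 for stress RE minus control RE and −0.22 for stress RE minus NP. In these, 0 and 2 list genes had an unadjusted p under 0.05, beside 188 and 256 of all genes. None of the 8 was called. For control RE against NP, Calb2, Dpysl3, Sox11 and Sox4 had an unadjusted p under 0.05, all lower in control RE, beside 340 of 16014 genes in all. Calb2 is also on the mossy cell list. The summed level of the list was highest in NP 2, a library that stands apart, at 262.9 CPM, and Sox4 was at 17.6 CPM there against 7.90 to 10.6 in the other NP mice. Sox11, a transcription factor of immature neurons, was at 25.7 to 34.0 CPM in NP and 21.3 to 24.7 in control RE, without overlap (−0.34 ± 0.10 SE, edgeR adjusted p = 0.996), and at 22.8 to 29.3 in stress RE. Dcx, the immature neuron microtubule protein, averaged 19.0, 19.0 and 17.2 CPM. The summed level of the list moved with batch, at 208 to 263 CPM in batch 1, 157 to 192 in batch 2 and 129 to 171 in batch 3. Without batch 1 the control RE minus NP median was −0.23 with 2 list genes at an unadjusted p under 0.05, beside 207 of 16235 in all. With batch as a term it was −0.28 with 3 list genes, beside 264 of 16690.

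**Figure D5:**
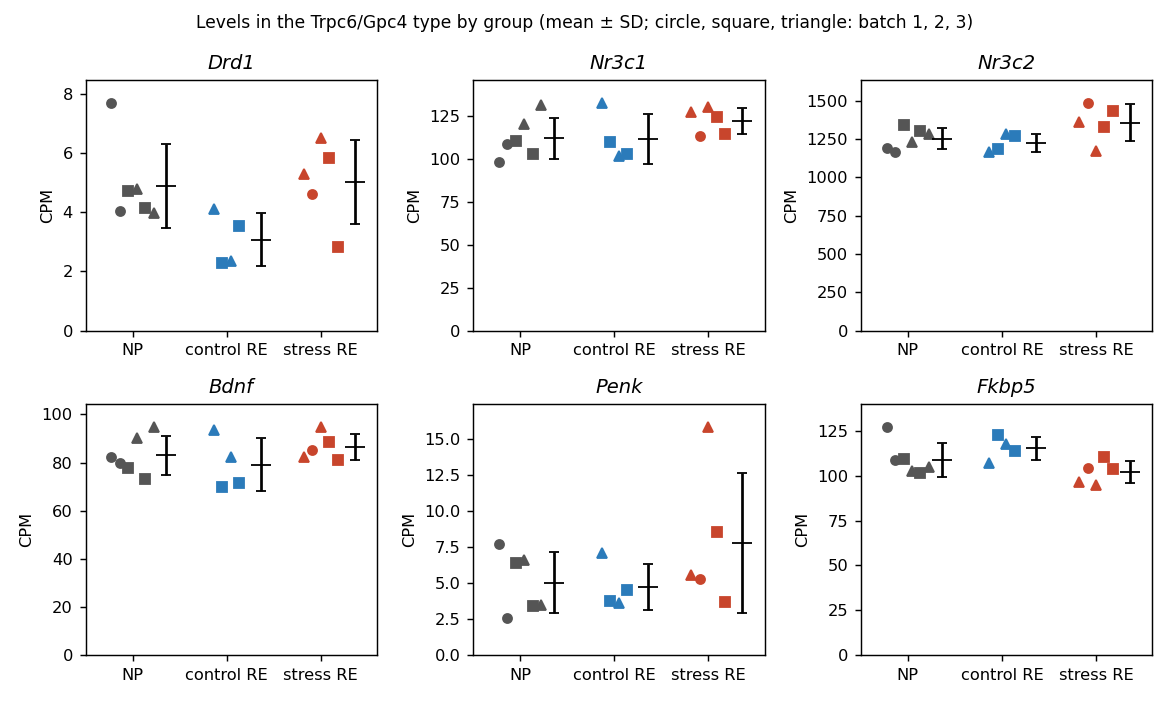
CPM of Drd1, Nr3c1, Nr3c2, Bdnf, Penk and Fkbp5 in the Trpc6/Gpc4 type by group. Points are mice, shaped by batch, and bars the group mean and SD. The groups overlap in every panel, with NP 1 the highest for Drd1 at 7.72 CPM and stress RE 3 the highest for Penk at 15.8 CPM.

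Whether a group difference was unlike that of the Dsp/Chst9 neurons was tested with an interaction term, both types of each mouse entering with the mouse as a block. Of 14234 genes, edgeR called 0 (0%) for control RE minus NP, 1 (0.00703%) for stress RE minus control RE and 0 (0%) for stress RE minus NP. Without the filter on low counts it called 67, 95 and 42 of 26909. Unadjusted p was under 0.05 for 712, 789 and 643 genes, near the 0.05 of tested genes that chance alone gives. DESeq2 called 0 in each, with 431, 446 and 380. The called gene was Adamts19, a secreted metalloprotease of the ADAMTS family. It was at 5.84, 8.59, 4.70 and 5.04 CPM in control RE and 8.33, 8.81, 12.2, 3.13 and 9.46 CPM in stress RE within the Trpc6/Gpc4 type. Within the Dsp/Chst9 type it was at 14.7, 8.35, 24.3 and 10.7 CPM in control RE and 3.22, 4.24, 8.24, 1.27 and 5.76 CPM in stress RE. The groups overlapped in the Trpc6/Gpc4 type and were apart in the other, where stress RE mice gave 2 to 26 UMIs each. The difference of the differences was 2.18 ± 0.37 on the log2 scale (edgeR adjusted p = 0.0242), made up of 0.48 in the Trpc6/Gpc4 type and −1.67 in the other, neither of which passed within its type. The log2 value was 2.16 with an adjusted p of 0.116 in DESeq2. It was 2.16 with an edgeR adjusted p of 0.0676 without NP 2 and stress RE 2. Without the filter on low counts it was 2.19 with an edgeR adjusted p of 1.2e-14. That run called 95 genes here, against 1 with the filter and 0 in DESeq2, so its p is not firmer evidence. Leaving out control RE 3 gave 1.73 (edgeR adjusted p = 0.215). Leaving out stress RE 1, 2, 4 or 5 gave 2.05, 2.15, 2.16 and 2.30, with edgeR adjusted p of 0.229, 0.0585, 0.0550 and 0.0752. Among the genes next in order, none of them called, Chgb, Etl4, Zfp385b and Spock1 had log2 values between 0.56 and 0.82 and Adam12, Pcdh15, Rnf19a, Ror1 and B4galt4 between −1.19 and −0.28 for stress RE minus control RE. For control RE minus NP, Gm20319, Ryr1, Dach1, Maob and Cped1 lay between 0.40 and 2.29 and Etl4, Gm2164, Sorcs3, Gap43 and Vwc2l between −1.63 and −0.73. These are differences between the types, not levels: Dach1, at 1.00, was lower in control RE in both, by −0.61 in the Trpc6/Gpc4 type and −1.62 in the other, where it was called (edgeR adjusted p = 0.0199). For stress RE minus NP, Maob, Ccdc3, 9330185C12Rik, Mettl4 and 1600012H06Rik lay between 0.75 and 3.89 and Pcdh15, Adam12, A830012C17Rik, Mief1 and 0610010K14Rik between −3.42 and −0.55. The outer values rest on few UMIs in the Dsp/Chst9 type. There, Ccdc3 (3.89) had 0 to 2 UMIs in each stress RE mouse and A830012C17Rik (−3.42) 0 or 1 in each NP mouse.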

How the data were processed

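Nuclei were profiled with the 10x Genomics droplet assay, 1 library per mouse. The authors aligned reads and counted UMIs with Cell Ranger (version 7.1.0 in the methods, 7.0.0 in the matrix headers) against mm10, and the deposited filtered matrices hold whole-number counts for 32285 genes, before the removal of ambient RNA, doublets or normalization. Ambient RNA removal was not repeated, and doublets were removed in an alternative only. The gate and sums were applied to the counts as deposited, and counts were summed per mouse and type. Groups and batches came from the labels.

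Shares were compared by two-sided exact permutation over mice, and genes by edgeR 4.0.16 (filterByExpr, TMM, quasi-likelihood, adjusted p under 0.05, R 4.3.3), tested on simulated data. DESeq2 1.42.0, no filter, batch as a term, doublet removal with Scrublet (scanpy 1.11.5), equal nuclei per mouse, other sum minimums, thinning to 5000 UMIs and leaving out each mouse were the alternatives. Levels are CPM, log2 ratios between types used a pseudocount of 1 CPM, and genes at 20 CPM in either type were compared. Oligodendrocytes were nuclei with at least 5 UMIs of Mag, Mog, Mobp and St18 together and none of Slc17a7, Gad1 or Gad2. The genes named were the 15 widest ratios in each direction among those on 1 side in all 15 mice, the 5 smallest p in each direction of each group comparison, called genes, and listed genes. The members and lists were chosen with earlier results of these data known. Positions are from GENCODE vM21 (GRCm38). Replicates in a group are separate mice, and their numbers follow accession order.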

Additional observations from a re-analysis of the deposited data

Results flagged for a closer look

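Among 63 checks of a sample against the rest of its group, 5 gave a mouse that stood farther out than the 95% limit of Dixon's test, and chance alone gives about 1 in 20 groups. In the Trpc6/Gpc4 neurons of NP mice, Drd1 was at 7.72 CPM in NP 1 against 3.97 to 4.81 in the other NP mice, Fkbp5 at 127 CPM in NP 1 against 102 to 110, and Sox4, a transcription factor of immature neurons, at 17.6 CPM in NP 2 against 7.90 to 10.6. In stress RE mice, Zbtb16, a glucocorticoid-responsive transcription factor, was at 460 CPM in stress RE 2 against 299 to 341 in the others, and Ntrk2 was at 398 CPM in the same mouse against 302 to 317. Stress RE 2, which stood apart as a library, also had the most Nrg1 in the type, 1371 CPM. A further result was the interaction of Adamts19 with the type, a log2 value of 2.18 for stress RE against control RE, where the difference between the granule types was itself tested. The log2 value was 2.16 in DESeq2 (adjusted p = 0.116) and 2.16 without NP 2 and stress RE 2 (edgeR adjusted p = 0.0676). Without the filter on low counts it was 2.19 (edgeR adjusted p = 1.2e-14), in a run that called 95 genes for this comparison. The p of that run is not firmer evidence. The call was also lost without control RE 3, where the value was 1.73, and without stress RE 1, 2, 4 or 5, where it was 2.05 to 2.30.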

How the results depend on the processing

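Each share difference lay within the spread between mice, and its sign depended on the setting in several cases. For the share of gated granule nuclei, control RE minus NP was −0.0676 points as the mean of within-batch differences and −0.0676 without batch 1, and thinning to 5000 UMIs gave −0.663 for stress RE minus control RE and −0.0743 for stress RE minus NP. For the nuclei assigned to either type, control RE minus NP was −0.285 within batches and −0.285 without batch 1, and stress RE minus NP was −0.109 within batches. For all nuclei with 500 genes, control RE minus NP was −0.495 within batches and −0.495 without batch 1, and stress RE minus NP was −0.517 without batch 1. Leaving out single mice gave ranges of −0.0194 to 1.41, −0.847 to 0.798 and −0.0125 to 1.55 points for the 3 differences of granule nuclei (control RE minus NP, stress RE minus control RE, stress RE minus NP), −0.310 to 0.905, −0.780 to 0.689 and −0.463 to 1.01 for assigned nuclei, and 0.846 to 3.04, −2.40 to 0.523 and −0.534 to 2.39 for all nuclei. In the Trpc6/Gpc4 type, edgeR called 0 genes in every comparison and alternative run. For the interaction, no filter on low counts gave 67, 95 and 42 genes in the order above, DESeq2 gave 0 for stress RE minus control RE, and leaving out NP 2 and stress RE 2 gave 1 for control RE minus NP, 0 for stress RE minus control RE and 0 for stress RE minus NP. Leaving out single mice gave 0 to 1, 0 to 12 and 0 to 2 genes. The cause of these moves was not tested. Leaving out batch 1 and leaving out both libraries were chosen after seeing the data. No paired analysis was possible because replicate numbers follow accession order and each mouse belongs to 1 group.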

Other observations

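Some receptor genes varied widely between mice of 1 group, in both granule types. In the Trpc6/Gpc4 type, Oprm1 was at 37.8, 18.3, 75.2, 77.4, 40.9 and 29.7 CPM in NP 1 to 6, at 47.5, 85.1, 27.5 and 69.4 CPM in control RE 1 to 4 and at 57.3, 13.1, 79.1, 51.5 and 32.5 CPM in stress RE 1 to 5. In the Dsp/Chst9 type it lay between 3.94 and 42.5 CPM, lowest in NP 2 and highest in stress RE 3. NP 2 and stress RE 2, the libraries that stood apart, had the lowest Oprm1 in both types. Erbb4, a receptor of the Nrg1 ligand, lay between 54.1 and 194 CPM in the Trpc6/Gpc4 type and between 47.9 and 148 CPM in the other. The groups overlapped for both genes. The antisense-named genes were also lowest in NP 2 and stress RE 2, and the part of that in these levels was not tested.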
